A study of Bos taurus with 8 samples.

Results

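The aryl hydrocarbon receptor (AHR) and 5 genes tied to it were examined in cow blood kept with a plant extract. The genes were AHR, its nuclear partner ARNT, and the target genes TIPARP, CYP1A1, CYP1B1 and NQO1, taken by their symbol in the table of group averages. These 6 of the 16966 gene symbols on the array are represented by 17 of its 43653 probes, 60-base oligonucleotides that each have 1 spot, and each probe was treated apart. AHR, ARNT and NQO1 have 2 probes each, CYP1B1 has 3, and TIPARP and CYP1A1 have 4 each.

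The receptor is a transcription factor of the bHLH-PAS family that waits in the cytosol in a complex with the chaperone HSP90. When it binds a ligand, among them dioxins, tryptophan products and some plant phenolics, it enters the nucleus, pairs with ARNT and switches on genes of foreign-compound metabolism. CYP1A1 and CYP1B1 are the classical targets and encode cytochrome P450 enzymes, NQO1 encodes a quinone reductase that the oxidant sensor NRF2 also drives, and TIPARP encodes an ADP-ribosyltransferase that in mouse and human cells feeds back on the receptor.

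Each of the 2 groups had 4 single-colour Cy3 arrays. In the CPE group, blood drawn from Holstein Friesian cows, all female, was kept for 30 min at 37 °C under 5% CO2 with cowpea leaf phenolic extract at 10 µg/ml. In the CONTROL group, the blood was kept in the same way with no extract. The labels name 5 cows, all of which had received a probiotic for 60 days, and give neither their ages nor the cow behind any array. Per the series text RNA was pooled within each group, so arrays of the same group may be repeats of 1 pool, and each SD, SE and p here measures how much arrays varied, which may be technical. Each group lay on its own slide, scanned at its own time, so slide, scan and treatment cannot be told apart.

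Large areas of every array were dim, and 29.6% of spots lay in bright surroundings on all 8 arrays, called the bright area below. A spot's surroundings were called bright when the 90th percentile of raw signal over its 61 nearest spots came within 1.5 log2 units of the array's own upper level. In bright surroundings the scanner software called 59.6% to 69.2% of spots well above background on CPE arrays and 57.4% to 59.7% on CONTROL arrays. In dim surroundings it called 21.3% to 35.7% on CPE arrays and 11.8% to 21.8% on CONTROL arrays. CPE array 3 stood apart in its processing. Per its file header it alone received multiplicative detrending, which changed its processed signal by −1.97 (1st percentile) to 3.40 (99th percentile) on the log2 scale. Its values before that step are given beside those of probes in the comparisons.

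Of the 17 probes, 6 lay in the bright area: both AHR probes and 1 each of ARNT, TIPARP, CYP1B1 and NQO1. Only 4 probes were well above background on all 8 arrays, the pair for AHR and a pair for TIPARP, and 3 of these 4 lay in the bright area. Another 8 probes were well above background on no array. They were the 4 of CYP1A1, the 3 of CYP1B1 and 1 of ARNT. Over the whole array, 22.1% of spots were well above background on all 8 arrays and 36.7% on none.

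**Figure D1:**
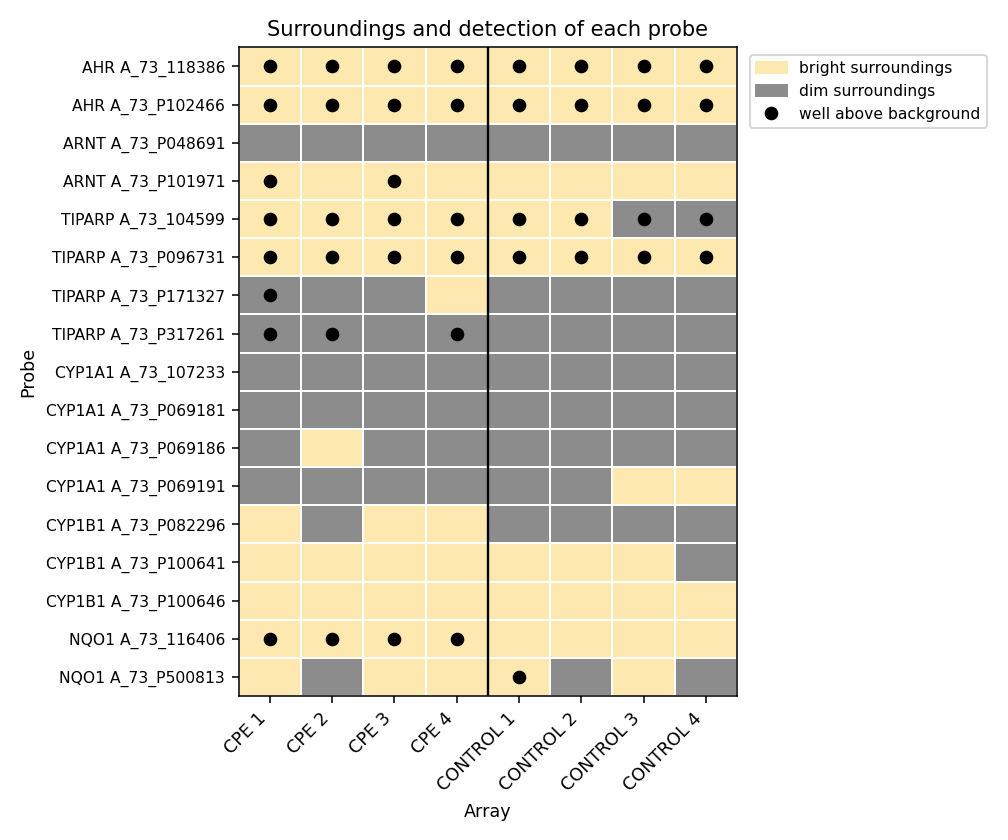
Surroundings and detection of the 17 probes (rows) on the 8 arrays (columns, CPE left of the line and CONTROL right of it). Yellow cells are bright surroundings, grey cells dim ones, and a dot marks a spot well above background. Of the 17 probes, 6 have bright surroundings on all 8 arrays, and no CYP1A1 or CYP1B1 cell has a dot.

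The probes the comparisons turn on are shown here as deposited, 5′ to 3′. The 2 AHR probes (NM_001206026) and the TIPARP probe in the bright area (NM_001206048) are given in lower case throughout. The 2 NQO1 probes (NM_001034535) share a run of 45 bases, given in capitals, and differ in the base that follows it. The same holds for 2 CYP1B1 probes (NM_001192294), which share 34 bases and were well above background on no array.
AHR A_73_P102466: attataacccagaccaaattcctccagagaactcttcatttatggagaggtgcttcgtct
AHR A_73_118386: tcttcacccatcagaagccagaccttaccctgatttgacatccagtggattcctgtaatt
TIPARP A_73_P096731: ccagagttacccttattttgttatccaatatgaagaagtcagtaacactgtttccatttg
NQO1 A_73_116406: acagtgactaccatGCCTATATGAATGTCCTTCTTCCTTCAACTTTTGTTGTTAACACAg
NQO1 A_73_P500813: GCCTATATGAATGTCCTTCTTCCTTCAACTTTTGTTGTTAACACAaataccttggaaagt
CYP1B1 A_73_P100641: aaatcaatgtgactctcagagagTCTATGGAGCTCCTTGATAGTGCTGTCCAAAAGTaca
CYP1B1 A_73_P082296: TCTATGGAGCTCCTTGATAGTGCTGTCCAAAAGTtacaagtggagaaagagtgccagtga

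No other pair of probes of the same gene shared a run of 20 bases or more. GC content of the 17 probes ran from 35.0% to 71.7%, the highest being the third CYP1B1 probe, A_73_P100646.

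AHR, the receptor itself, read lower in CPE blood at both probes. The brighter probe, A_73_P102466, had processed signals of 218.2, 207.4, 83.3 and 231.7 intensity units on CPE arrays 1 to 4, against 444.9, 424.2, 428.9 and 393.2 on CONTROL arrays 1 to 4. All CPE arrays lay below all CONTROL arrays, and CPE array 3 lay below the other CPE arrays. Without multiplicative detrending the signal of CPE array 3 was 252.5, above the other 3 and still below all CONTROL arrays. Raw median signals, before any subtraction, were 265.0 to 321.0 on CPE arrays and 469.5 to 501.5 on CONTROL arrays.

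Scaled to the 75th percentile of the bright area, this AHR probe was at −1.84 ± 0.30 in CPE and −0.72 ± 0.10 in CONTROL (log2 level, SD, n = 4 each). The change was −1.12 on the log2 scale, 2.18-fold lower in CPE (SE 0.15, limma adjusted p = 0.000421). It was −0.94 without the multiplicative detrending of CPE array 3 and −0.98 without that array. Spots around it read lower too, with a median change of −0.57 over its 60 nearest bright-area neighbours. Over the 31 of these that were themselves detected on every array the median was −0.19, and 29 of them had a higher value than AHR. Subtracting the local median deviation left a change of −0.64 (adjusted p = 5.46e-05).

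The second AHR probe, A_73_118386, was dimmer. It read 39.3, 48.3, 25.9 and 41.4 intensity units on CPE arrays 1 to 4, against 68.2, 68.4, 83.9 and 47.2 on CONTROL arrays 1 to 4. As processed signal the groups overlapped only in that CPE array 2 (48.3) exceeded CONTROL array 4 (47.2), and as scaled levels in the bright area they did not overlap. Before multiplicative detrending CPE array 3 was at 41.9. Levels were −4.03 ± 0.18 in CPE and −3.41 ± 0.22 in CONTROL (log2, SD, n = 4 each). The probe fell by 0.62 on the log2 scale, or 1.54-fold (SE 0.14, adjusted p = 0.00573). With normexp background correction, run on the median signal with an offset of 50 intensity units, this change was −0.011 (adjusted p = 0.988) and that of the brighter AHR probe −0.57 (adjusted p = 0.0186). The 60 nearest bright-area neighbours of A_73_118386 had a median change of −0.27. Over the 24 of these that were detected on every array the median was 0.33, and all 24 had a higher value than this probe. Subtracting the local median deviation left a change of −0.42 at A_73_118386 (limma adjusted p = 0.0107). The 2 AHR probes share no run longer than 7 bases.

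TIPARP read higher in CPE at its bright-area probe, A_73_P096731. Processed signals were 970.7, 1094.4, 513.6 and 1000.3 intensity units on CPE arrays 1 to 4, against 641.4, 629.3, 635.2 and 577.1 on CONTROL arrays 1 to 4. CPE arrays 1, 2 and 4 lay above all CONTROL arrays, while CPE array 3 lay below them, at 1038.4 before its multiplicative detrending. In raw median signal all CPE arrays (979.0 to 1117.0) lay above all CONTROL arrays (607.0 to 692.0). Levels in the bright area were 0.48 ± 0.14 in CPE and −0.17 ± 0.11 in CONTROL (log2, SD, n = 4 each), with no overlap. The rise was 0.64 on the log2 scale, or 1.56-fold (SE 0.10, limma adjusted p = 0.00101). With no scaling between arrays it was 0.47 and not past the threshold (adjusted p = 0.243).

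The other TIPARP probes lay outside the bright area. A_73_104599 was well above background on all 8 arrays and read 1110.5, 1248.2, 986.9 and 906.5 intensity units on CPE arrays 1 to 4, against 600.2, 649.8, 406.8 and 210.3 on CONTROL arrays 1 to 4. In this unscaled signal all CPE arrays lay above all CONTROL arrays, while as levels scaled over the whole array the groups overlapped. The surroundings of this spot were bright on all CPE arrays and on CONTROL arrays 1 and 2, and dim on CONTROL arrays 3 and 4, which had the lowest signals. A_73_P317261 was well above background on CPE arrays 1, 2 and 4, at 51.2, 103.3 and 63.5 intensity units, and on no CONTROL array (8.0 to 10.1). Its surroundings were dim on all 8 arrays, and the 189.5 units of CPE array 3, not well above background, were 15.6 before multiplicative detrending. A_73_P171327 was well above background on CPE array 1 only, at 34.8 units.

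NQO1 read higher in CPE at A_73_116406, its probe in the bright area. Its signals were 52.7, 58.3, 23.4 and 41.5 intensity units on CPE arrays 1 to 4, against 9.5, 10.1, 12.9 and 9.2 on CONTROL arrays 1 to 4. CPE array 3 was at 46.6 before multiplicative detrending. The spot was well above background on all CPE arrays and on no CONTROL array, where 3 of the 4 values were the array's floor, although its surroundings were bright on all 8. The measured levels were −3.89 ± 0.24 in CPE and −6.08 ± 0.23 in CONTROL (log2, SD, n = 4 each), and limma gave an adjusted p of 1.68e-05 for their difference. Because CONTROL has only a bound, NQO1 is given as at least 1.24-fold higher in CPE at this scaling and this choice of limit. That bound sets each CONTROL array to its lowest level well above background in the bright area, where this was higher than the probe's own. Unscaled, the lowest signal well above background in bright surroundings was 40.0 to 50.6 intensity units on CONTROL arrays. It was 18.5 to 35.4 on CPE arrays 1, 2 and 4 and 5.1 on CPE array 3. The unscaled CPE signals (23.4 to 58.3) thus did not all exceed the CONTROL limits. The bound rests on the scaling and on taking the lowest such spot as the limit. The 5th percentile of such signals was 51.17 to 63.35 intensity units on CONTROL arrays, and no bound was taken from it. This probe entered the test through the group in which it is high, and with normexp its change was 0.68 (adjusted p = 0.331).

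The second NQO1 probe, A_73_P500813, shares 45 of its 60 bases with the first. It read 16.3, 7.1, 5.4 and 9.9 intensity units on CPE arrays 1 to 4, against 165.9, 10.1, 8.0 and 9.2 on CONTROL arrays 1 to 4. CPE array 3 was at 11 units before multiplicative detrending. The spot was well above background on CONTROL array 1 only. On CPE arrays 1, 3 and 4 its surroundings were bright and the spot was not well above background. The probe therefore showed no counterpart of the CPE signal at A_73_116406, and the difference between the probes was not tested.

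**Figure D2:**
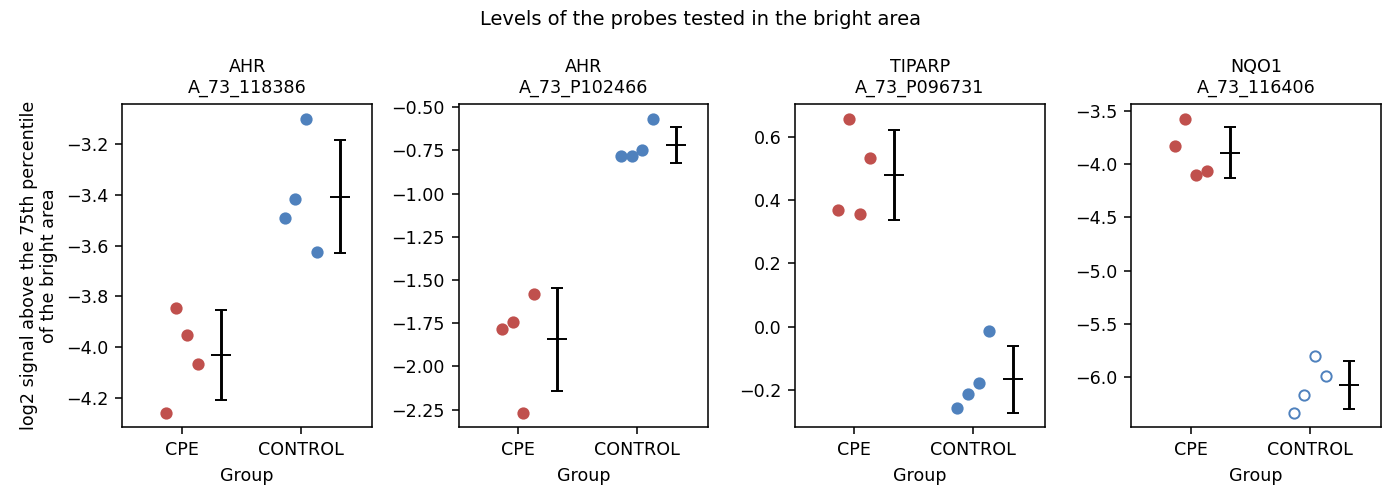
Levels of the 4 member probes tested in the bright area, as log2 processed signal above the 75th percentile of that area on each array (vertical axes differ). Points are arrays, open where the spot was not well above background, and bars are mean and SD of 4 arrays. CPE (left in each panel) and CONTROL do not overlap in any panel, nor in 50.7% of all probes tested in the bright area. AHR is lower in CPE and TIPARP higher. The NQO1 probe entered the test only through CPE, where it is high, and its CONTROL values lie at or near the floor.

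CYP1A1 and CYP1B1, the P450 targets, were well above background on no array of either group. The 4 CYP1A1 probes read 3.7 to 50.4 intensity units on CPE arrays and 8.0 to 11.2 on CONTROL arrays, none well above background. The highest of these, 50.4 at A_73_107233 on CPE array 3, was 4.9 before multiplicative detrending. Of the 28 CYP1A1 values on the other 7 arrays, 24 were exactly the array's floor. No CYP1A1 probe had bright surroundings on all 8 arrays. A_73_P069186 had them on CPE array 2 and A_73_P069191 on CONTROL arrays 3 and 4, and the other 2 probes had them on none.

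CYP1B1 had better placed spots. A_73_P100646 lay in bright surroundings on all 8 arrays and read 3.7, 7.1, 2.7 and 6.9 intensity units on CPE arrays 1 to 4, against 9.5, 10.1, 8.0 and 9.2 on CONTROL arrays 1 to 4. CPE array 3 was at 4.9 before multiplicative detrending. All 7 values outside CPE array 3 were the floor of their array, and values at the floor have no order. A_73_P100641 had bright surroundings on 7 arrays and was well above background on none. The lowest signal that was well above background in bright surroundings was 18.5 to 35.4 intensity units on CPE arrays 1, 2 and 4, 5.1 on the detrended CPE array 3, and 40.0 to 50.6 on CONTROL arrays. CYP1B1 transcript below those levels was not detectable here.

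ARNT, the partner of the receptor, lay near the limit of detection. Its bright-area probe A_73_P101971 (NM_173993) read 39.2, 24.4, 34.3 and 24.6 intensity units on CPE arrays 1 to 4, against 36.3, 31.2, 36.8 and 18.1 on CONTROL arrays 1 to 4. CPE array 3 was at 42.5 before multiplicative detrending. The groups overlapped fully, and the spot was well above background on CPE arrays 1 and 3 alone. It did not pass the filter on dim probes. Fitted without that filter its change was 0.20 (SE 0.30, adjusted p = 0.622 over 12957 probes), which does not show that ARNT was alike in both groups. The other ARNT probe was well above background on no array and in dim surroundings on all 8.

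**Figure D3:**
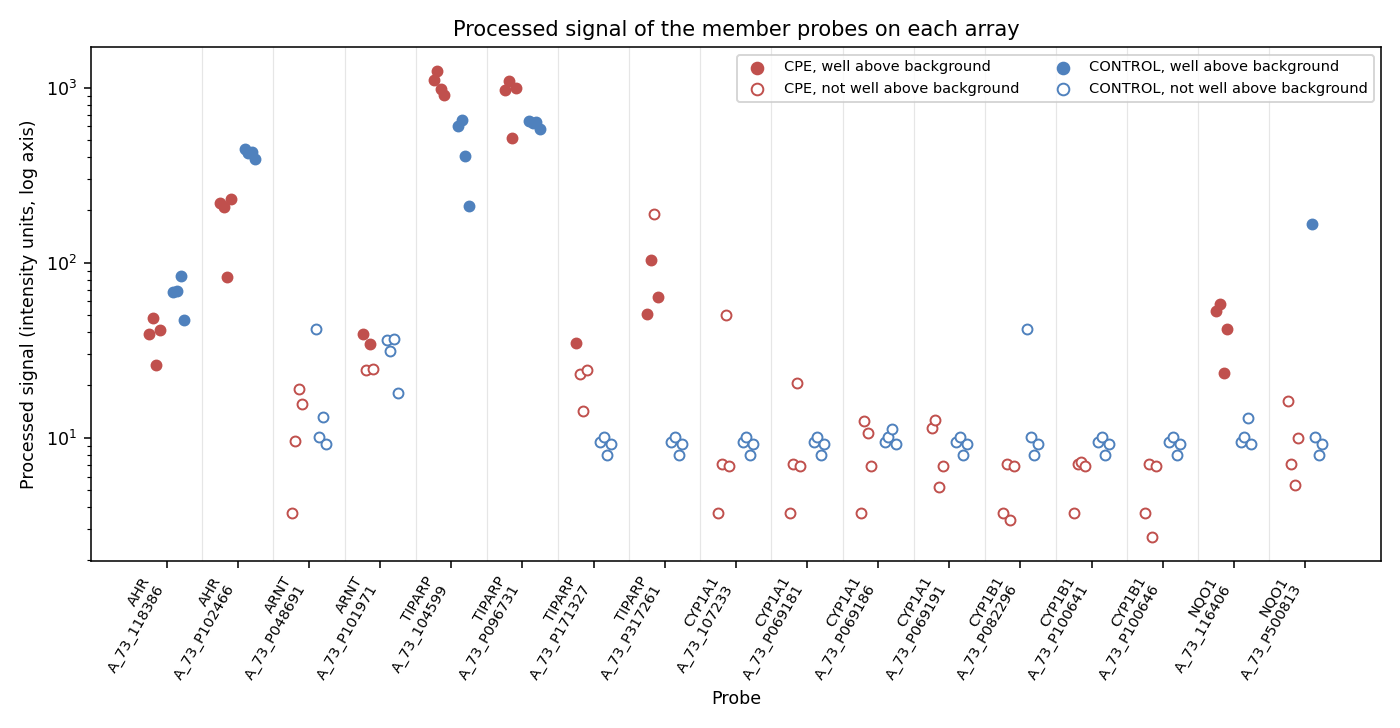
Processed signal (log axis, intensity units) of the 17 probes on the 4 CPE arrays (red, left of each pair) and the 4 CONTROL arrays (blue, right). Filled points were well above background and open points were not. AHR points lie lower in CPE, except that at A_73_118386 CPE array 2 (48.3 units) lies above CONTROL array 4 (47.2 units). CYP1A1 and CYP1B1 points are all open, and a single filled CONTROL point stands out at NQO1 A_73_P500813 (165.9 units).

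In the bright area both AHR probes were called lower and the TIPARP probe higher in CPE at an adjusted p of 0.05. The NQO1 probe, also past it, entered the test only through the CPE group where it is high, and its p rests on CONTROL values at or near the floor. Among all 8031 probes tested there, 24.1% were called higher and 24.2% lower, and the groups did not overlap in 50.7%, so with 48.3% of probes called one way or the other a call was common. Without scaling between arrays the split over all probes was 437 higher and 1033 lower, and with local centring 3560 and 2128, against 1935 and 1942 as reported. The median log2 change of all tested probes was 0.028. AHR A_73_P102466 lay at percentile 4.53 of all changes, AHR A_73_118386 at 13.7 and TIPARP at 86.3. NQO1, bounded in CONTROL, is given no percentile.

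Over the whole array, with the 75th percentile taken over all spots, 5 member probes were tested. AHR was lower at both, with changes of −2.24 and −1.74 on the log2 scale (limma adjusted p = 0.0113 and 0.0157), and no member was called higher at this scaling. With no scaling AHR A_73_118386 had a change of −0.80 (adjusted p = 0.0645), and with normexp −0.58 (0.135), so its call was lost in both. Among all 14932 probes tested 21.6% were called lower and 17.3% higher, and the median change was −0.82. On this scale TIPARP A_73_P096731 had a change of −0.48 (adjusted p = 0.444), TIPARP A_73_104599 of 0.36 (0.469) and NQO1 A_73_116406 of 1.06 (0.119). The sign of the first was positive with no scaling, with scaling to bright probes and with normexp. NQO1 was called higher with no scaling (2.01, adjusted p = 0.00175), with scaling to bright probes (1.56, adjusted p = 0.0128), with CPE array 3 before its multiplicative detrending (1.41, adjusted p = 0.00971) and without that array (1.504, adjusted p = 0.0171), all against CONTROL values not well above background. TIPARP A_73_104599 was called higher with no scaling (1.30, adjusted p = 0.0304) and with scaling to bright probes (0.85, adjusted p = 0.0292). Without CPE array 3 another call was TIPARP A_73_P317261, which passed the filter on dim probes only without that array and only through CPE, where it is high. Its CONTROL values were all at the floor, and its surroundings were dim on all 8 arrays. With no filter and all arrays its change was 2.34 (adjusted p = 0.0155). That change includes the 189.5 units of CPE array 3, which were 15.6 before multiplicative detrending and not well above background. Without scaling 3247 probes were called higher and 1145 lower, against 2587 and 3231 as reported. With scaling to bright probes 3031 were higher and 2535 lower, and with CPE array 3 taken before its multiplicative detrending 2677 and 4531.

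The authors' deposited table of group averages holds this whole-array scale. In the authors' deposited table, CPE minus CONTROL was −2.24 and −1.74 for the AHR probes, 1.06 for NQO1 A_73_116406 and −2.03 for NQO1 A_73_P500813. The same authors' deposited table lists CPE minus CONTROL as −2.36 to −1.55 for CYP1B1 and as −1.33 to −0.85 for CYP1A1, for spots that were well above background on no array. The floor was 3.72 to 7.10 intensity units on CPE arrays 1, 2 and 4 and 8.03 to 10.1 on CONTROL arrays.

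**Figure D4:**
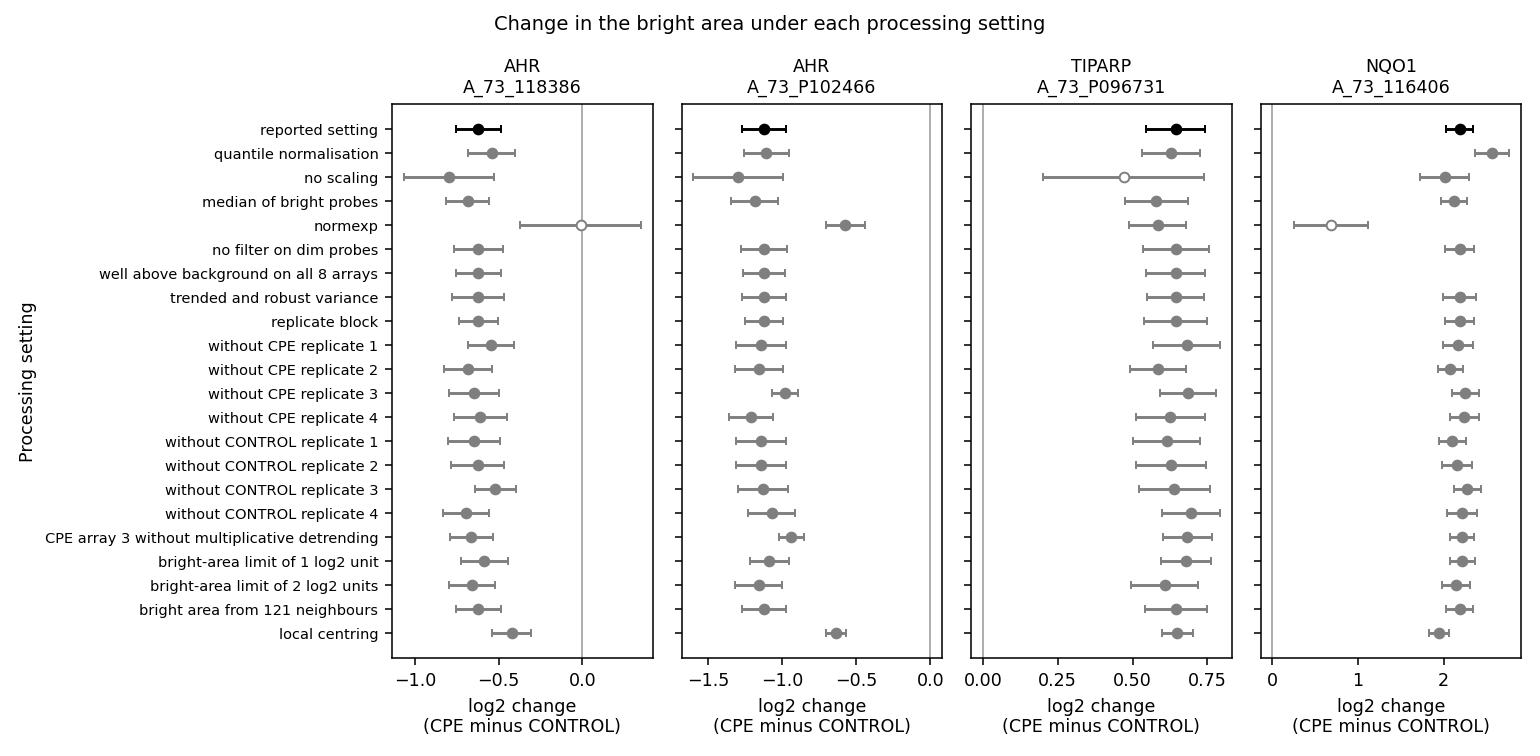
Log2 change, CPE minus CONTROL, of the 4 member probes in the bright area under each processing setting (rows). Bars are SE and open points did not pass an adjusted p of 0.05. AHR A_73_P102466 was past the threshold in all 22 settings, AHR A_73_118386 and NQO1 not with normexp, and TIPARP not without scaling. NQO1 has no value where a probe must be well above background on all 8 arrays, and its CONTROL values lie at or near the floor.

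Genes around the receptor were followed in 8 lists. Over all lists 38 probes were tested in the bright area, of which 3 were called higher and 12 lower, beside 24.1% and 24.2% of all probes there. Of the 35 list probes well above background on all 8 arrays, 2 were higher and 11 lower, beside 1656 and 1805 of all 7166 such probes. With local centring the split of the lists was 11 higher and 13 lower. In the receptor's cytosolic complex, 3 probes of HSP90AA1 and SRC were tested in the bright area, of which 1 was called higher and none lower (median −0.068). HSP90AA1, the inducible HSP90 chaperone, was at 4.61 ± 0.29 in CPE and 3.39 ± 0.27 in CONTROL at A_73_P129021 (log2 level, SD, n = 4 each), a rise of 1.22 (SE 0.18, limma adjusted p = 0.00077). A second HSP90AA1 probe had a change of −0.068 (adjusted p = 0.639). PTGES3 and HSP90AB1 had no tested probe in the bright area.

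Among dimer partners and coregulators, 9 probes of 6 genes were tested, with 1 higher, 4 lower and a median of −0.22. CREBBP, a histone acetyltransferase, was higher at A_73_P302841 (1.16, SE 0.08, adjusted p = 1.47e-05) and lower at both of its other probes (−0.57 and −0.53). Over the whole array these changes were 0.040 (limma adjusted p = 0.949), −1.70 and −1.65. RB1, the retinoblastoma protein, fell by 0.65 on the log2 scale (SE 0.09), and NCOA2, a steroid receptor coactivator, by 0.59 at 1 of its 2 probes (SE 0.12). Both calls were lost with normexp, at −0.10 for RB1 (adjusted p = 0.891) and −0.12 for NCOA2 (0.82), and that of NCOA2 also with no scaling (0.0572). HIF1A, the hypoxia factor that also pairs with ARNT, had a change of −0.13 (adjusted p = 0.237). AHRR, the receptor's repressor, was well above background at no probe on any array, and so was ARNT2.

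Of the further AHR targets 4 probes were tested, with none higher and 2 lower (median −0.30). IDO1, the enzyme that starts the kynurenine route to endogenous AHR ligands, was at 1.76 ± 0.12 in CPE and 2.66 ± 0.08 in CONTROL (log2 level, SD, n = 4 each). It fell by 0.89 (SE 0.09, adjusted p = 9.8e-05). The amino acid transporter gene SLC7A5 fell by 0.67 (SE 0.07, adjusted p = 0.00011). NFE2L2, which encodes NRF2, had a change of 0.059 (adjusted p = 0.603) and ALDH3A1, an aldehyde dehydrogenase, of 0.42 (0.258). CYP1A2, UGT1A1, UGT1A6, SERPINB2 and PTGS2 were well above background at no probe on any array.

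In the list of tryptophan ligand enzymes IDO1 was the single call among 4 probes. Of 7 probes in the ARNT and hypoxia factor list, 3 were lower and none higher (median −0.13). CA9, a carbonic anhydrase, fell by 0.62 (SE 0.11), and the glucose transporter gene SLC2A1 by 0.27 at 1 of 2 probes (SE 0.09, adjusted p = 0.0326), a call lost in 10 of 21 alternative settings. The third was VEGFA, the vascular growth factor (−1.13), well above background on 2 of 4 CPE arrays and named after its value was seen. It passed the filter only through CONTROL, where it is high.

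The NRF2 list had 1 probe higher and 1 lower of 6, with a median of 0.0050. TXNRD1, a thioredoxin reductase, fell by 0.81 (SE 0.19, adjusted p = 0.00899). Its change was −0.27 with normexp, where the call was lost (adjusted p = 0.442), and −0.26 with local centring. The probe called higher was that of MAFF, a small MAF protein, well above background on no CONTROL array and named after its value was seen. It passed the filter only through CPE, where it is high. The NRF2 target genes HMOX1, GCLC, GCLM and SRXN1 had no tested probe in the bright area. Of 7 probes for relatives of TIPARP, none were higher and 2 lower, PARP4 by 0.50 (SE 0.11) and PARP10 by 0.50 (SE 0.18, adjusted p = 0.0474). MACROD1, MACROD2 and OARD1, listed as enzymes that remove its mark, had no tested probe in the bright area. The call of PARP10 was lost in 11 of 21 alternatives. That of PARP4 was lost with no scaling (adjusted p = 0.114), and its change was −0.20 with local centring. POR, which passes electrons to P450 enzymes, had a change of 0.14 (adjusted p = 0.255) and was the single tested probe of the P450 partners.

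Markers of blood cell types moved beside these genes, with 24.1% of all bright-area probes called higher and 24.2% lower. In the bright area 7 of 10 T cell probes were higher and none lower, with a summed level of 93.5 to 106 on CPE arrays and 70.6 to 77.0 on CONTROL arrays (sum over probes of signal relative to the 75th percentile). All 3 neutrophil probes tested were lower. That of ALPL, well above background on 1 of 4 CPE arrays, passed the filter only through CONTROL, where it is high. Sums over the 5 neutrophil probes in the bright area were 7.80 to 9.71 in CPE and 17.03 to 18.01 in CONTROL. Of 3 monocyte probes 2 were lower, with sums of 4.43 to 7.83 in CPE and 9.78 to 12.5 in CONTROL. Of 5 B cell probes 1 was lower, with sums of 34.9 to 42.4 in CPE and 37.8 to 41.1 in CONTROL, and of 1 red cell probe none was called. The single platelet probe tested, of PPBP, was higher (sums of 1.38 to 1.94 in CPE and 0.517 to 0.668 in CONTROL). CD163 and FCGR1A of the monocyte list were well above background on no array. Of 8 liver probes in the bright area none passed the filter, the single epithelial probe tested, of KRT8, was not called, and ALB, EPCAM and CDH1 were well above background on no array. Over the whole array the counts differed, beside 17.3% of all probes called higher and 21.6% lower there. Of 14 T cell probes 2 were higher and none lower (median −0.49). Of 7 monocyte probes 3 were higher and 2 lower (median 0.58), and 3 of 4 neutrophil probes were lower (median −2.15). The T cell and monocyte rises there (CD3D, LCK, CD14, CD68 and CSF1R) passed the filter only through CPE, where they are high. On CONTROL arrays these probes were well above background on none, or for CSF1R on 1. The part of the blood cell types in the AHR, TIPARP and NQO1 differences was not tested, and in bulk RNA fewer cells of a type and less RNA per cell cannot be told apart.

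Some probes followed the members over the 8 arrays. NT5C3B, GBP1 and ABTB1 were nearest to AHR A_73_P102466 among 7088 bright-area probes well above background on all 8 arrays (Pearson r = 0.997, 0.996 and 0.996). HDGF, ATG12 and RPL13A were nearest to TIPARP A_73_P096731 (r = 0.997, 0.996 and 0.995). DEFB10, SLC44A2 and OTUD3 were nearest to AHR A_73_118386 (r = 0.98, 0.97 and 0.97). Such likeness was common where a group difference was large, since 14.6% of probes had r above 0.9 with the brighter AHR probe, 8.61% with TIPARP and 1.47% with the dimmer AHR probe. The 2 AHR probes had r = 0.78 with each other over the same arrays, which may share 1 RNA pool per group.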

How the data were processed

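The authors read each array with Agilent Feature Extraction 10.10.1.1, per the submitters' processing notes. In the deposited array files each spot has a signal intensity, background-subtracted and detrended per the file headers, with low values at a floor. The deposited table of the authors holds log2 averages per group, whose differences matched the whole-array scale within 0.1 for 99.6% of probes. Probes were named by accession or symbol in the RefSeq annotation of another build, so no positions are given.

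Log2 processed signal minus the 75th percentile of each array was compared with limma 3.58.1 in R 4.3.3 (two-sided, Benjamini-Hochberg over all tested probes, threshold 0.05), over the whole array and over the bright area. A probe was tested if every array of either group had it well above background. The scanner software's outlier spots (12 to 73 an array) were dropped, and no spot was saturated. Normexp used the median signal, since the files given hold no mean signal. The code was checked on simulated data. The members, lists, bright area and naming rules were chosen with earlier results of these data known. Beside every member, up to 2 rises and 2 falls per list were named among called bright-area probes well above background on all 8 arrays, and the 3 named genes nearest to a member by Pearson r over the 8 arrays. Alternatives were other scalings, normexp (offset 50), other filters and variance models, a replicate block, each array left out, 121 neighbours, limits of 1 or 2 log2 units and local centring. The fit with CPE array 3 before multiplicative detrending was added after seeing the data. The number of arrays limits the precision.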

Additional observations from a re-analysis of the deposited data

Results flagged for a closer look

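Dixon's test on log2 processed signal in 34 groups of 4 arrays singled out 5 values, where chance alone gives about 1 in 20 groups. CPE array 3 stood below the other CPE arrays at AHR A_73_P102466 (83.3 intensity units, against 207.4 to 231.7) and at TIPARP A_73_P096731 (513.6, against 970.7 to 1094.4). In raw median signal the same array read 321.0 at AHR, against 265.0 to 286.0 on the others, and 1073.5 at TIPARP, against 979.0 to 1117.0. CONTROL array 1 stood above the other CONTROL arrays at NQO1 A_73_P500813 (165.9, against 8.0 to 10.1) and at CYP1B1 A_73_P082296 (41.6, against 8.0 to 10.1), the second not well above background. These spots lie at rows 385 and 401, columns 3 and 10. The 90th percentile of raw signal around the CYP1B1 spot was 307 on CONTROL array 1 and 103 to 163 on the other CONTROL arrays. CPE array 1 stood below the other CPE arrays at CYP1B1 A_73_P100641 (3.7, against 6.9 to 7.3), where 3.7 is the floor of that array.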

How the results depend on the processing

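In the bright area AHR A_73_P102466 kept its direction and its call in all 21 alternatives (−1.30 to −0.57). The call was lost by AHR A_73_118386 and NQO1 with normexp (−0.011 and 0.68) and by TIPARP A_73_P096731 with no scaling (0.47), and each kept both in its other alternatives. The number of member probes called was 2 with normexp. All probes called numbered 1470 with no scaling and 1695 with normexp, and list probes called numbered 9, 8 and, with local centring, 24, against 3877 and 15 as reported. Leaving out 1 array gave 3235 to 4410 calls, 4 of 4 for the members and 13 to 18 for the lists. The changes then ran from −1.21 to −0.98 and −0.69 to −0.52 for the AHR probes and 0.58 to 0.69 for TIPARP. They ran from 2.08 to 2.27 for NQO1, which entered these fits only through CPE, where it is high. Its CONTROL values were at or near the floor, so that range does not measure how stable its difference is. Over the whole array calls numbered 3134 with normexp and 3690 with probes well above background on all 8 arrays (209 higher, 3481 lower), against 5818. They numbered 3764 without CONTROL array 2, the lowest of a leave-one-out range up to 6876. Members called there numbered 4 with scaling to bright probes, 1 with normexp, 4 with no filter and 4 without CPE array 3, against 2, with a leave-one-out range of 2 to 4. The calls added with no filter were CYP1B1 A_73_P082296, well above background on no array, and TIPARP A_73_P317261, at the floor on all CONTROL arrays. TIPARP A_73_P096731 over the whole array reversed to 0.47 with no scaling, 0.019 with scaling to bright probes and 0.011 with normexp. The median change of all probes was −0.82, and 0.13, −0.32 and −0.35 under those settings. Deviations of same-numbered arrays correlated at −0.12, −0.17, 0.29 and 0.42 across bright-area probes, and those of other pairs at −0.44 to 0.30. So few arrays cannot settle whether equal replicate numbers mark pairs, and the reported fits treat the arrays as unpaired. The replicate block gave 3754 calls in the bright area and 7036 over the whole array. The cause of each lost call was not tested.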
